A study of Mus musculus with 2 samples.

Results

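The 9 genes described here mark the granule cell lineage of the cerebellum, and they were chosen by name: Atoh1, Barhl1, Pax6, Zic1, Zic2 and Zic4, called progenitor genes below, and Neurod1, Cbln1 and Cbln3, called differentiating genes. All 9 were found among the 45578 genes of the deposited table, and 8 of them had the mean count of at least 10 footprints that was required for a test. Footprints are the short mRNA fragments that translating ribosomes shield from nuclease, and they were counted in polysomes from the whole brains of 2 mice at postnatal day 5. Both mice were controls of the genotype Smn+/-; SMN2tg/0, so each had 1 disrupted Smn allele and the human SMN2 gene as a transgene; the strain was FVB. They formed a single group of biological replicates 1 and 2, and no group of another genotype, age or brain region was analysed here. Wild-type Smn mice were therefore not part of the comparison, and the cerebellum was not measured apart from the rest of the brain.

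Granule cells are the most numerous neurons of the cerebellum. Their progenitors arise in the rhombic lip under the basic helix-loop-helix factor Atoh1, spread over the cerebellar surface as the external granule layer and divide there in the first weeks after birth in response to Sonic hedgehog from Purkinje cells. Cells that leave the cycle switch on Neurod1, migrate inward and later secrete cerebellins, which bridge the parallel fibre to the Purkinje cell at the synapse. These genes are not private to the lineage: Pax6 and Neurod1 also act in the forebrain, Zic genes in the meninges and midline, and Cbln1 in other brain regions.

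Basic helix-loop-helix factors such as Atoh1 and Neurod1 bind E-boxes, short motifs of which CAGCTG, a palindrome that reads alike on both strands, is a common form. Of the 9 genes, 7 had a promoter in the RefSeq set (250 bases before and 50 after the start, build GRCm38.p6), and the motif was present for 1 of them, Barhl1, at each of its 2 start sites. The 2 windows are shown because Barhl1 and Atoh1 are followed side by side below; capitals mark the motif, which begins 99 bases before the first start and 15 bases before the second. Of all 32851 promoters in the set, 16.3% held the same letters, so a match is a description of the sequence and not a binding site.
Barhl1 first start, chr2:28916750-28916779, minus strand: ggccacgcagccCAGCTGgccctcctccca
Barhl1 second start, chr2:28912493-28912522, minus strand: tcacctcacattCAGCTGaaccctgtcatg

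Replicate 1 held 1866831 footprints and replicate 2 held 5261878, a ratio of 2.82, so low genes are better measured in replicate 2. Levels are given as CPM, the count scaled to the total of the library, as counts per 1e+06 footprints, with Clopper-Pearson 95% intervals that cover counting error only. The 9 genes together took 0.0537% of the footprints in replicate 1 (interval 0.0505 to 0.0572) and 0.0678% in replicate 2 (0.0656 to 0.0701). Their combined share was thus higher in replicate 2, and the counting intervals did not overlap. In whole tissue, fewer cells of a type and less RNA per cell cannot be told apart.

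The Zic genes, zinc finger factors of granule progenitors and their progeny, carried most of the lineage footprints. Zic1 had 364 footprints in replicate 1 and 1196 in replicate 2, or 195 (175 to 216) and 227 (215 to 241) CPM. Zic2 had 197 and 579 footprints, or 106 CPM (91.3 to 121) and 110 CPM (101 to 119). For both genes the intervals of the replicates overlapped. Zic4, which lies beside Zic1 on chromosome 9 and whose gene extent overlaps it in RefSeq, had 46 and 239 footprints, or 24.6 CPM (18.04 to 32.9) and 45.4 CPM (39.8 to 51.6). It was the Zic gene whose intervals did not overlap between the replicates. Zic5, a relative, had a mean level of 26.8 ± 1.57 CPM (SD, n = 2).

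Atoh1, the factor that specifies granule progenitors, was near the limit of detection. It had 3 footprints in replicate 1 and 31 in replicate 2, or 1.61 CPM (0.331 to 4.70) and 5.89 CPM (4.00 to 8.36). Scaled to the depth of replicate 1, the count of replicate 2 would be 11.0 footprints. Barhl1, a homeobox factor of the same progenitors and of young granule cells, had 80 and 332 footprints, or 42.9 CPM (34.0 to 53.3) and 63.1 CPM (56.5 to 70.3). The Barhl1 intervals did not overlap either. Atoh1 thus made up 3.61% of the footprints of Atoh1 and Barhl1 together in replicate 1 (0.752 to 10.2) and 8.54% in replicate 2 (5.88 to 11.9). These shares overlapped, so a different balance between the factors was not detectable at this depth. Pax6, a paired-box factor present from the progenitor to the mature granule cell, had 69 and 339 footprints, or 37.0 CPM (28.8 to 46.8) and 64.4 CPM (57.7 to 71.7), with intervals that did not overlap.

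Among the differentiating genes, Neurod1, the factor that drives cell cycle exit and differentiation, had 95 and 418 footprints, or 50.9 CPM (41.2 to 62.2) and 79.4 CPM (72.01 to 87.4). Cbln1, the cerebellin needed for parallel fibre synapses, had 147 and 422 footprints, or 78.7 CPM (66.5 to 92.6) and 80.2 CPM (72.7 to 88.2). Neurod1 was lower in replicate 1 with intervals that did not overlap, while the levels of Cbln1 lay within each other's intervals. Cbln3, a cerebellin that is secreted only together with Cbln1, had 2 footprints in replicate 1 and 14 in replicate 2, or 1.07 CPM (0.130 to 3.87) and 2.66 CPM (1.45 to 4.46). It stayed below the count needed for a test. Gabra6, a GABA-A receptor subunit of mature granule cells, had 0 and 7 footprints, where the floor of 3 counts set for an empty library stands at 1.61 CPM in replicate 1 and the upper bound of its Clopper-Pearson interval at 1.98 CPM.

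**Figure D1:**
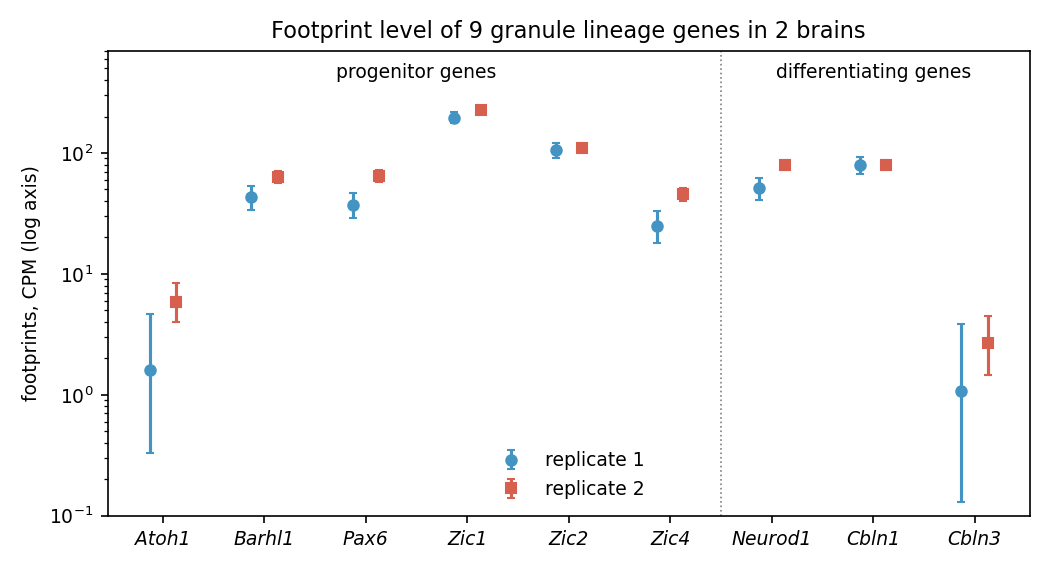
Footprint level in CPM, on a log axis, of the 9 lineage genes in replicate 1 (circles) and replicate 2 (squares), with Clopper-Pearson 95% counting intervals; a dotted line parts the progenitor from the differentiating genes. Zic1 lies highest at 195 and 227 CPM, and Atoh1 and Cbln3 lie below 10 CPM in both brains with wide intervals.

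To set the genes against each other, the summed counts were divided by the longest annotated coding sequence, which gives CPM per kilobase of coding sequence (RPKM). Zic1 stood highest at 157 ± 17.0 and Cbln1 followed at 137 ± 1.77 (SD, n = 2), and the replicates of these neighbours did not overlap. Zic2 came next at 67.8 ± 2.01, apart from Cbln1 by a factor of 2.01. Zic2, Neurod1 (60.7 ± 18.8), Barhl1 (53.8 ± 14.5), Pax6 (38.7 ± 14.8) and Zic4 (34.1 ± 14.3) formed a run in which no neighbours were apart beyond their spread. Atoh1 at 3.55 ± 2.87 was 9.62 times lower than Zic4, with replicates apart, and did not differ from Cbln3 at 3.14 ± 1.89 beyond the spread. Among the 13349 tested genes with a coding sequence, Zic1 lay at percentile 90.5 and Atoh1 at percentile 9.03 of this level. Cbln1 therefore ranked second by coding length although Zic2 had the higher CPM, because its coding sequence of 582 nucleotides is the shortest of the 9. When only the highest transcript of a gene was counted, Cbln1 (76.0) and Zic1 (74.6) exchanged places and Pax6 stood at 3.09, below Atoh1, since its footprints were spread over many transcripts.

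The replicates were then compared gene by gene, to see which lineage genes differed by more than counting noise. The log2 ratio of replicate 2 over replicate 1 was taken after TMM scaling, and its median over all 16427 genes tested was then 0.01. Each gene was tested with a two-sided exact binomial test with Benjamini-Hochberg adjustment over all of them. This test compares 2 libraries and not conditions. Of the 8 lineage genes tested, 3 were called higher and 0 lower in replicate 2, where 17.4% of all genes were called, 5.95% higher and 11.5% lower. With library totals in place of TMM, 4 were called higher and 0 lower, and the calls over all genes turned from 978 higher and 1883 lower to 1896 higher and 1227 lower. The genes were picked with results of these libraries known, so this count carries no test of its own.

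The called genes were Zic4, Pax6 and Neurod1. Zic4 (ENSMUSG00000036972) had a log2 ratio of 0.74 (95% interval 0.30 to 1.24; exact binomial test, adjusted p = 0.00674). Pax6 (ENSMUSG00000027168) had a log2 ratio of 0.67 (0.30 to 1.07; adjusted exact p = 0.00304). Neurod1 (ENSMUSG00000034701) had a log2 ratio of 0.51 (0.19 to 0.85; adjusted exact p = 0.0119). They belong to both groups: 2 are progenitor genes and 1 is a differentiating gene. With edgeR's exact test and the common dispersion of these libraries, 0 of the 8 were called and 0 had an unadjusted p under 0.05, while 11 of all genes were called and 721 had an unadjusted p under 0.05. That dispersion was estimated from the same difference that the test then compares.

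The other genes were not called. Barhl1 had a log2 ratio of 0.43 (0.08 to 0.80) and an adjusted exact p of 0.0790, and it was called at 0.55 with library totals in place of TMM. Atoh1 had the highest ratio, 1.49, with an interval from 0.07 to 4.10 and an adjusted exact p of 0.164. Its ratio was 1.05 when a prior of 2 CPM in place of 0.5 CPM was added to each level. Zic1 had a log2 ratio of 0.09 (-0.08 to 0.27) with an adjusted exact p of 0.539. Zic2 at -0.07 (-0.30 to 0.17) and Cbln1 at -0.10 (-0.37 to 0.18) changed sign with library totals, to 0.06 and 0.03. The 3 genes with the highest mean levels per coding length, Zic1, Cbln1 and Zic2, were those with ratios closest to 0. Zic2 was not apart in this level from Neurod1, which was called at 0.51. Cbln3, untested, had a ratio of 0.91 with an interval from -0.94 to 4.37, and of 0.54 with the prior of 2 CPM.

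**Figure D2:**
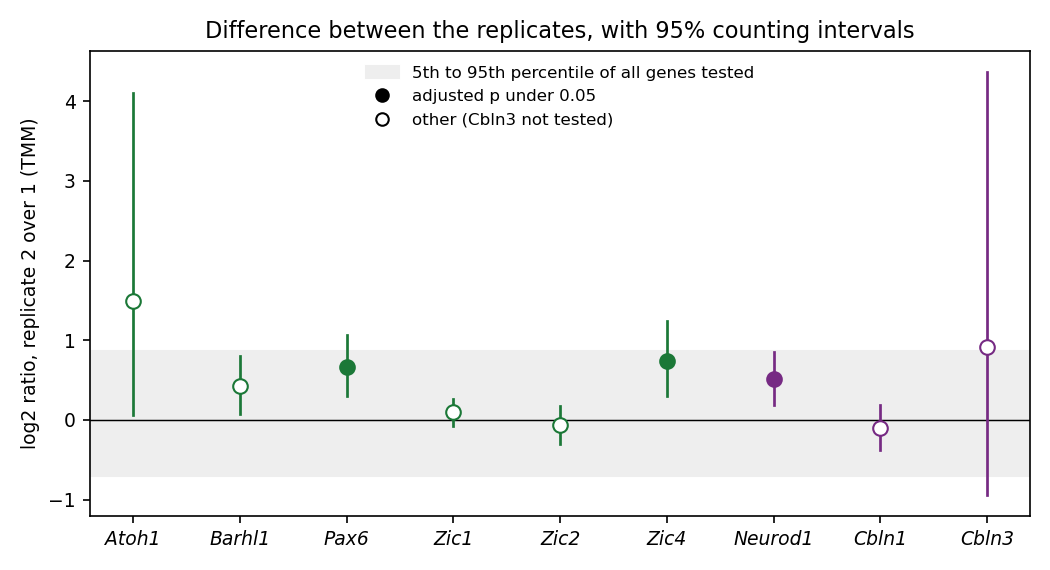
Log2 ratio of replicate 2 over replicate 1 after TMM scaling for the 9 genes (green progenitor, purple differentiating), with 95% counting intervals; the grey band spans -0.70 to 0.86, the 5th to 95th percentile of all genes tested. Filled points are Pax6, Zic4 and Neurod1, which passed the exact binomial test; Zic2 and Cbln1 lie at -0.07 and -0.10 and turn to 0.06 and 0.03 with library totals.

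Progenitor and differentiating genes were then compared as groups. The median log2 ratio was 0.55 over the 6 progenitor genes, from -0.07 to 1.49, and 0.51 over the 3 differentiating genes, from -0.10 to 0.91. The value of 0.51 is the ratio of Neurod1 alone, which lay between Cbln1 and the untested Cbln3. The order of the medians turned when only the highest transcript of a gene was counted, at 0.32 and 0.59, and when Pax6 was left out of the progenitor genes, at 0.43 against 0.51. The differentiating genes took 24.3% of the footprints of the 9 genes in replicate 1 (21.7 to 27.1) and 23.9% in replicate 2 (22.5 to 25.4). Library scaling cancels in this share, and the difference lay within counting error. Leaving out Pax6, a gene of forebrain cells too, gave 26.1% and 26.4%. The ratios spread more widely among the genes of each group than between the medians of the groups.

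Some combinations of genes differed in balance between the brains. Neurod1 made up 39.3% of the footprints of Neurod1 and Cbln1 in replicate 1 (33.1 to 45.7) and 49.8% in replicate 2 (46.3 to 53.2). There were 0.646 Neurod1 footprints for each Cbln1 footprint in replicate 1 and 0.991 in replicate 2, and the intervals of the shares did not overlap. Zic4 made up 11.2% of the footprints of Zic4 and its neighbour Zic1 in replicate 1 (8.33 to 14.7) and 16.7% in replicate 2 (14.8 to 18.7), narrowly without overlap. The extents of Zic1 and Zic4 overlap in RefSeq, and any part of Zic1 in the Zic4 counts was not tested. The balance of Zic2 with Zic1 was 35.1% (31.2 to 39.2) and 32.6% (30.4 to 34.9), and that of Barhl1 with Neurod1 was 45.7% (38.2 to 53.4) and 44.3% (40.7 to 47.9); both overlapped. These combinations were chosen after the levels had been seen, and carry no test.

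**Figure D3:**
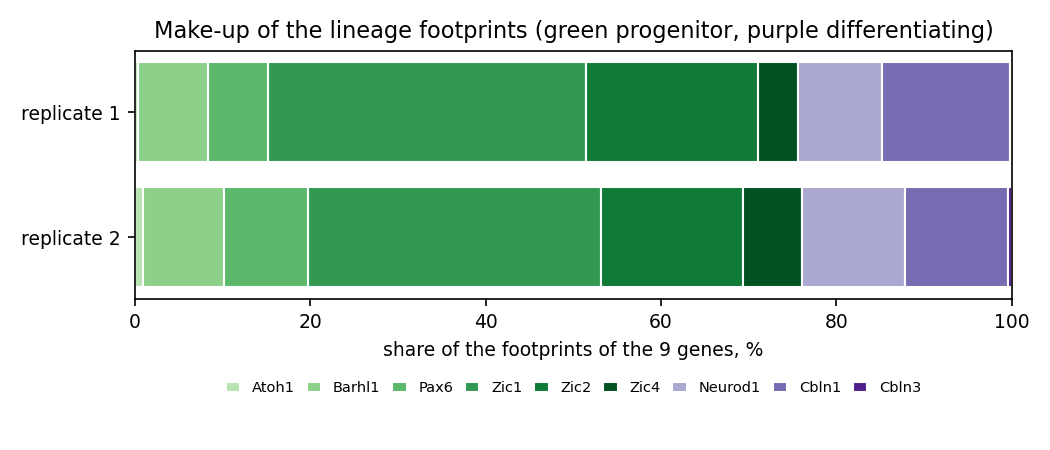
Share of each gene in the footprints of the 9 genes, in percent, for each replicate (green progenitor genes, purple differentiating genes). The purple part spans 24.3% in replicate 1 and 23.9% in replicate 2, while Neurod1 spans 9.47% and 11.7% and Cbln1 spans 14.7% and 11.8%.

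The 9 genes had 54 annotated transcripts, and their footprints were spread unevenly over them. Atoh1 and Neurod1 had a single transcript each, and Cbln1 and Cbln3 had 2 coding transcripts each. For Zic1, the coding transcripts Zic1-001 and Zic1-002 held 172 and 166 footprints in replicate 1 and 570 and 519 in replicate 2. The processed transcript Zic1-003, of 395 nucleotides and with no annotated coding sequence, held 26 and 107. It had 65.8 footprints per kilobase in replicate 1, below Zic2-001 at 73.0, and 271 in replicate 2, where it was above every other transcript of the 9 genes. Transcripts of a gene share exons, and how a fragment that matches several was assigned is not given in the sources used here, so such counts can come from the coding transcripts.

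Zic4 and Pax6, both called, were the genes with the most transcripts and the lowest coding shares. Coding transcripts held 54.3% of Zic4 footprints in replicate 1 and 53.6% in replicate 2, and retained introns 34.8% (21.4 to 50.2) and 37.2% (31.1 to 43.7). Over all genes, coding transcripts held 75.5% ± 1.09 and retained introns 9.36% ± 0.387 (SD, n = 2). With coding transcripts alone, Zic4 was no longer called, at a log2 ratio of 0.75 and an adjusted exact p of 0.0718, while Pax6 and Neurod1 kept their calls. With the highest transcript per gene, Neurod1 alone was called; Pax6 then had a log2 ratio of 1.26 (adjusted exact p = 0.325) on the 4 and 30 footprints of Pax6-012, and Zic4 a log2 ratio of 0.43 (adjusted exact p = 0.765).

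Pax6 had 26 transcripts, and its coding shares were 63.8% in replicate 1 and 61.7% in replicate 2. Its retained introns held 2 of 69 footprints in replicate 1, or 2.90% (0.353 to 10.1), and 47 of 339 in replicate 2, or 13.9% (10.4 to 18.0). Most of these lay on Pax6-014, with 1 and 31 footprints. Tested per transcript, Pax6-014 was the 1 transcript called among the 29 of these genes with enough counts, at a log2 ratio of 2.49 and an adjusted exact p of 0.0488, where 6.15% of all 43655 transcripts tested were called, 0.662% higher and 5.48% lower. Elp4, which overlaps Pax6 in RefSeq, had 73 and 272 footprints and was not called (adjusted exact p = 0.372); its part in the Pax6 counts was not tested, and the use of strand is not given in the sources used here.

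Pax6 coding transcripts fall into classes that differ by 42 nucleotides, or 14 codons, of coding sequence. This is the length of the alternative exon 5a, whose inclusion changes the DNA binding of the paired domain. The 4 transcripts of 1269 coding nucleotides held 19 and 94 footprints and the 4 of 1311 nucleotides held 17 and 88. The classes were thus close to even in both brains. They share nearly all their sequence, so these counts do not measure the use of the exon.

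**Figure D4:**
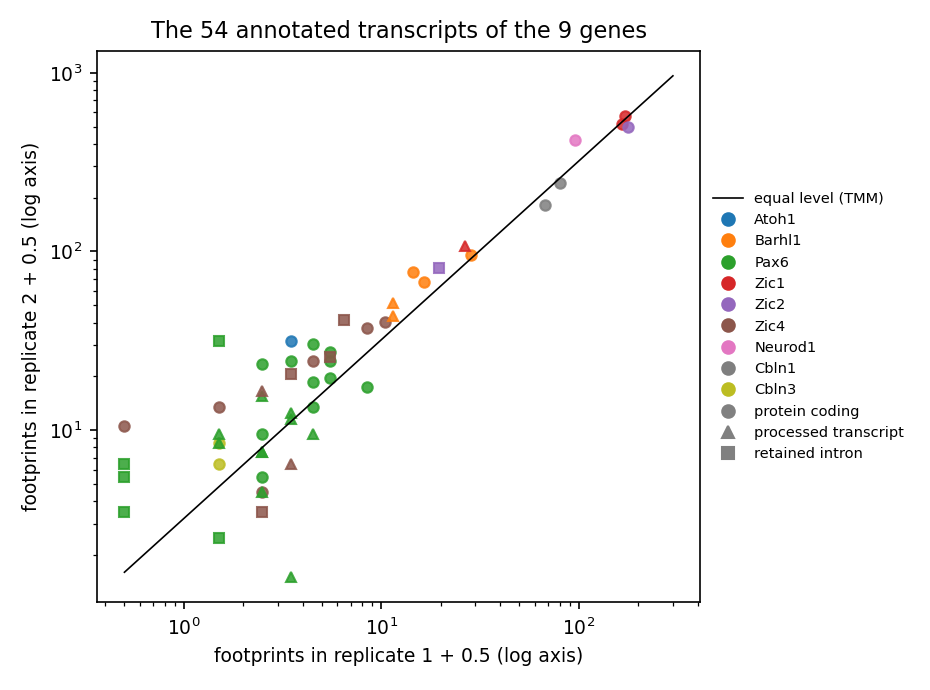
Footprints in replicate 1 against replicate 2, each with 0.5 added and on log axes, for the 54 annotated transcripts of the 9 genes; colours give the gene, shapes the transcript class, and the line marks equal levels after TMM scaling. The Zic1, Zic2 and Cbln1 coding transcripts lie along the line, and Pax6-014, with 1 and 31 footprints, lies far above it.

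Other genes of the lineage were read from lists written with results of these libraries known. Calls in these lists are to be read beside all genes tested, of which 5.95% were called higher and 11.5% lower. Genes with more footprints can be called at smaller ratios. Of 15 genes of the Sonic hedgehog pathway and progenitor division, 0 of 15 tested were called higher and 1 lower, with a median log2 ratio of -0.12. The highest levels were those of Ccnd2, the D-type cyclin of dividing granule progenitors, at 198 ± 13.7 CPM and Mycn, the hedgehog-induced Myc factor, at 95.2 ± 2.12 CPM (SD, n = 2). Both had ratios near 0, at 0.01 and -0.08. The called gene was Gas1, a hedgehog co-receptor, at -0.72 (adjusted exact p = 0.0196). The footprints of this list as a whole came to 640 and 665 CPM. These sums are scaled to library totals, whereas the ratios are after TMM, which lowers them. Of the 15 ratios, 6 were above 0 after TMM and 8 with library totals.

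Of 12 tested rhombic lip factors, 1 was called higher and 1 lower, with a median of 0.03. Meis1, a homeobox cofactor of granule progenitors, was the higher one at 0.72, with 68 and 346 footprints. Lhx9, a factor of other rhombic lip derivatives, was the lower one at -0.48. Barhl2, the relative of Barhl1, had 10 and 36 footprints and was not called.

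Genes of granule cell differentiation were called in both directions. Of 20 tested, 8 were called higher and 4 lower, with a median of 0.20. Calb2, called lower at -0.56, is also among the thalamic genes below and is counted in both lists. Over all genes, 5.95% were called higher and 11.5% lower. The highest ratio among called genes was that of Fat2, a cadherin of granule cells, at 0.97 with 19 and 117 footprints. The lowest was that of Neurod2, a relative of Neurod1 that is abundant in cortical neurons, at -0.76 with 195 and 354 footprints. Neurod1 and Neurod2 were thus called in opposite directions. Astn1, a protein of glia-guided migration, had the highest level, 429 ± 11.3 CPM, with a ratio of -0.07.

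Of 7 genes of the cerebellin system, 0 were called higher and 2 lower, with a median of -0.19. Cbln2 had a level of 75.5 ± 2.27 CPM and a ratio of -0.19 and was not called. Cbln4 was called at -0.65, with 94 and 183 footprints. Nrxn2, a presynaptic partner of cerebellins, had 888 ± 109 CPM and was called at -0.38.

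Markers of other cell types and brain regions differed between the replicates too. Their sums are scaled to library totals, whereas ratios and calls are after TMM. Over all genes, 5.95% were called higher and 11.5% lower. The 15 Purkinje cell genes summed to 567 CPM in the first replicate and 693 CPM in the second, and 1 of 14 tested was called higher (Pcp2, at 1.65) and 1 lower (Pcp4, at -0.56). The 12 forebrain genes summed to 1241 and 957 CPM, with 0 called higher and 6 lower and a median of -0.36. Nrgn alone, at 325 and 153 CPM (log2 ratio -1.21), had a large part in the difference of these sums. Of the 12 ratios, 3 were above 0. The 9 olfactory bulb and GABA cell genes summed to 566 and 523 CPM (0 higher, 2 lower), the 7 thalamic genes to 580 and 527 CPM (0 higher, 2 lower), and the 11 meningeal genes to 1818 and 1686 CPM (1 higher, 4 lower). The 7 genes of Bergmann glia and cerebellar interneurons summed to 1219 and 1069 CPM, with a median ratio of 0.04 over the 6 tested. Pax2, a marker of interneuron precursors, was called higher at 1.45 and Fabp7 lower at -0.67. Fabp7, at 583 and 399 CPM, and Slc1a3, at 549 CPM in each replicate, made up most of these sums. No marker of these 6 lists was at 0 in either library. Whether the amount of cerebellum in each brain sample or the balance of these cells had a part in the differences of Pax6, Zic4 and Neurod1 was not tested.

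**Figure D5:**
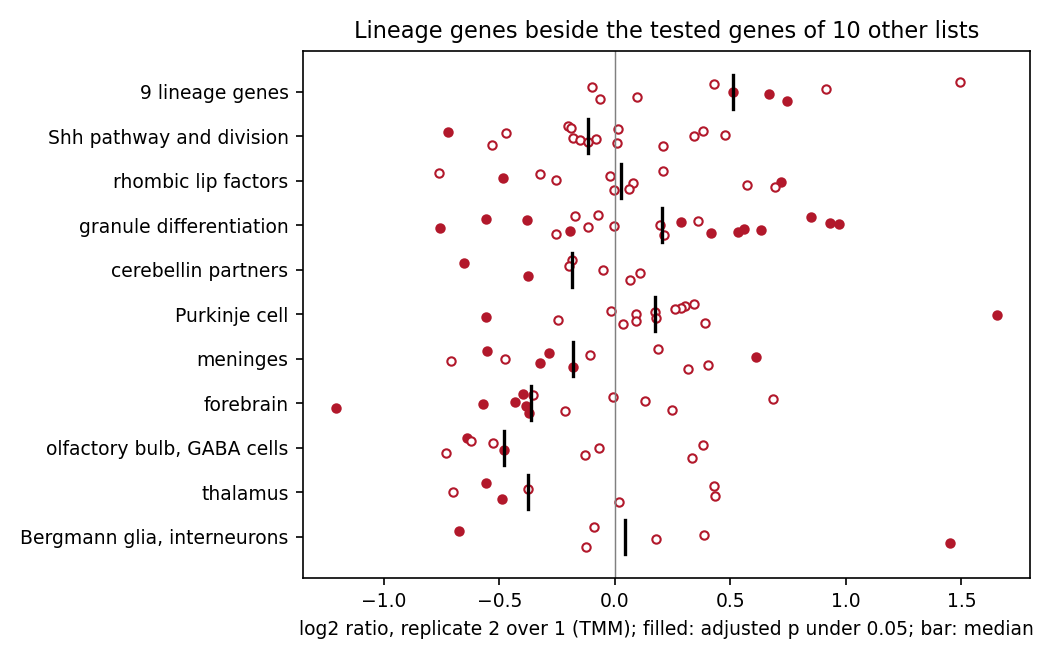
Log2 ratio of replicate 2 over replicate 1 after TMM scaling for the 9 lineage genes and for the tested genes of 10 other lists; filled points passed the exact binomial test and bars mark medians. The lineage median lies at 0.51 and that of forebrain genes at -0.36; Zic2 and Cbln1 are the lineage points below 0, and both lie above 0 with library totals.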

How the data were processed

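The authors deposited raw counts of ribosome-protected fragments per transcript, with annotated lengths and 1 column per replicate. The submitters' processing notes name Trimmomatic 0.36, Bowtie2 2.2.6, SAMtools and the build GRCm38.p4, with no parameters. Per the labels' protocols, polysomal fractions were digested with RNase I and fragments of 25 to 35 nucleotides were kept. The annotation release and the treatment of duplicates and of fragments with several matches are not given in the sources used here.

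Counts of a gene's transcripts were summed. In 49 pairs of coding transcripts of 1 gene with identical lengths, the mean squared difference over the sum was 1.07, where 0 would mean that shared fragments were counted on both and 1 is the value of independent counts. Scaling used TMM (edgeR 4.0.16; factors 0.957 and 1.04), which lowered log2 ratios by 0.13 from library totals (all-gene median 0.13 there), and by less for low counts. Ratios have a prior of 0.5 CPM. Each gene with a mean count of at least 10 was tested with an exact binomial test (scipy 1.17.1), called at an adjusted p under 0.05. The routine was checked on data simulated with counting noise alone, so the check does not cover variation between mice. The samples form 1 group, so edgeR's quasi-likelihood test had nothing to contrast and was not used. Intervals and p-values cover counting error only, and leave out variation between mice and library preparations, since each side is 1 library. PCR copies are not independent molecules, so where they were kept the counting error itself is understated. Means ± SD are over 2 brains.

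Members, lists and named genes were chosen with earlier results of these data known. Besides the 9 genes, each list's 2 highest genes, its called genes with the extreme ratios and relatives of members were named, except some that are not reported here; Gabra6, Elp4 and the transcript Pax6-014 were named after their values were seen. Alternatives were DESeq2 1.42.0 size factors, library totals, no filter, highest or coding transcripts, the trend with footprint density removed, another prior and each replicate alone; testing per transcript and the order of levels from the highest transcript were added after seeing the data.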

Additional observations from a re-analysis of the deposited data

How the results depend on the processing

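Called genes numbered 3 among the 9 and 2861 among all. With the highest transcript per gene they numbered 1 and 1444, and with edgeR's exact test 0 and 11; fewer footprints per gene in the first case and a dispersion taken from the same libraries in the second follow from how those settings are built. Calls were the same 3 genes with DESeq2 size factors, with no filter and with the density trend removed. Library totals called 1896 genes higher and 1227 lower in place of 978 and 1883, or 60.7% higher in place of 34.2%. Zic2 changed sign with library totals (0.0601) and with the density trend removed (0.00333), and Cbln1 with library totals (0.0263) and with its highest transcript (0.0367). The differentiating share of 24.1% was 32.7% with the highest transcripts, 27.7% with coding transcripts, 36.2% per nucleotide of coding sequence and 26.3% without Pax6, and ranged from 23.9% to 24.3% with each replicate alone. The median level of the 9 genes, taken in each replicate and then averaged, was 53.6 CPM. It ranged from 42.9 to 64.4 CPM with each replicate alone. With the highest transcripts it was 32.5 CPM, the level of Barhl1, but scaled among those transcripts alone. On that scale Neurod1, with its single transcript, stood at 129 CPM in place of 65.2 CPM. Scaled to library totals, the same Barhl1 transcript stood at 16.5 CPM, so 32.5 CPM cannot be set against 53.6 CPM. No paired analysis was possible because there is 1 group. Depth limits Atoh1 and Cbln3, with 3 and 2 footprints in replicate 1.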
